A study of Mus musculus with 29 samples.

Results

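Chemokines and chemokine receptors were followed in RNA-seq of mouse urothelium, the epithelium that lines the bladder, after activation of Pparg in its basal cells and in bladder tumors of mutant and control mice. Members were taken by symbol alone. They are every gene named Ccl, Cxcl, Xcl or Cx3cl with a number and every receptor named Ccr, Cxcr, Xcr, Cx3cr or Ackr with a number. The 2 rows with a pseudogene symbol were left out, whereas Cxcl11, which the gene annotation lists as a polymorphic pseudogene, was kept. This gave 63 of the 35199 genes in each table, made up of 40 ligands, 19 signaling receptors and 4 atypical receptors.

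Chemokines are small secreted proteins that steer leukocytes along a gradient, and their receptors are G protein-coupled receptors on the cells that respond. The CC ligands of Ccr2 and Ccr1 draw monocytes, macrophages and T cells, the ligands of Ccr3 draw eosinophils, and the CXC ligands that carry a Glu-Leu-Arg motif draw neutrophils through Cxcr2. Cxcl9, Cxcl10 and Cxcl11 are induced by interferon and draw activated T cells and NK cells through Cxcr3, whereas atypical receptors such as Ackr3 bind chemokines without G protein signaling and clear them. In tumors the ligands come from epithelial cells, fibroblasts, endothelium and the leukocytes themselves, so a bulk value does not say which cell made the RNA.

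The 4-day experiment held 4 control and 5 mutant libraries of untreated animals in homeostasis. The labels give the controls as wild type and the mutants as K5VP16;Pparg+/-, and the study's methods name the sorted cells K5;mTmG and K5VP16;Pparg;mTmG. The transgene, a Pparg cDNA fused to the VP16 activation domain and followed by IRES-EGFP, sits in Rosa26 behind a CAG promoter and a floxed STOP cassette. Krt5CreERT2 removes the cassette in basal cells after tamoxifen, given at 8 to 12 weeks of age, and Gfp+ cells were sorted at 4 days. The mTmG reporter makes recombined cells Gfp+ in the controls as well. The line was made from 129B6 hybrid ES cells with C57BL/6N mice and the Cre came from an FVB stock, but no label gives the strain of the animals used.

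The tumor libraries came from mice that drank the carcinogen BBN at 0.05%, for 5 months by the labels. Mutants and controls were given tamoxifen into the bladder after 1 month of BBN, and the sample titles read 4 months, the time from tamoxifen to the tumors. Tumor tissue was laser-captured from frozen sections. There were 3 basal tumors of mice labelled wild type, 3 luminal tumors of K5VP16;Pparg+/- mice, and 3 luminal domains (upper part) and 3 basal-like domains (lower part) of mixed lesions of K5VP16;Pparg+/- mice. The study's text names the control tumors VP16;Pparg fl/fl in one place and K5;mTmG in another, so whether these mice carried the Cre is not settled. All 4 groups share the carcinogen and tamoxifen. The labels do not say that libraries of a group came from separate animals, so p-values measure the spread between these libraries. Libraries are named here by group and a letter, in the order of the library numbers in the file headers. Luminal and basal-like domains with the same letter carry consecutive library numbers, but no label or text says whether they came from the same lesion, so they were not paired.

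Values are normalized counts, that is, estimated reads per gene divided by factors that make the libraries of a table comparable. They summed to between 36520193 and 41435665 per 4-day library and to between 41697178 and 53904714 per tumor library. How many reads lie behind a value is unknown. Each table was normalized on its own, so a tumor library has slightly different values in different comparisons. A gene was tested if it reached 10 normalized counts in as many libraries as the smaller group holds. The test was limma with Benjamini-Hochberg adjustment over all tested genes, called at an adjusted p under 0.05, and fold changes are differences of the mean log2(normalized count + 1) with their SE. Epcam, 1 of 4 epithelial markers listed, lay between 5901 and 33957 normalized counts in every library used, so each held epithelial RNA. It does not tell how much RNA of other cells a library held. The row for Pparg, which may also take reads of the transgene, lay between 9381 and 9999 normalized counts in 4-day controls and between 6111 and 9032 in mutants (adjusted p = 0.126), so it did not mark the transgene in the sorted cells. In tumors it was clear, with 13 to 126 normalized counts in basal tumors and 3579 to 8632 in luminal tumors (adjusted p = 0.0136).

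At 4 days after induction, Cxcl5, a neutrophil attractant of epithelial cells, was the member that passed the test, and it rose in the mutant cells. Cxcl1, Ccl2 and Ccl7 had higher means in the mutants by a similar factor but missed the threshold, and mutant B lay near the controls in all 3. Ackr3, the atypical receptor for Cxcl12 and Cxcl11, was lower in every mutant than in every control, with an adjusted p just above the threshold. Of the 63 members 33 were tested, 1 was called higher and 0 lower, against 2.85% of all 16413 tested genes called in either direction. A count of 1 in 33 is close to this background, so it is no result about the family as a whole.

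Cxcl5 lay at 18.1, 13.1, 27.0 and 7.04 normalized counts in controls A to D and at 247, 35.0, 1229.9, 144 and 547 in mutants A to E. All 5 mutants were above all 4 controls, and mutant B came closest to them. Cxcl5 was the 1 tested member that was higher without overlap, where 4.67% of all tested genes were, and its log2 fold change was 3.96 ± 0.89 (SE; adjusted p = 0.0461). The call was held in 1 of 9 fits without a library, with adjusted p from 0.0112 without mutant B to 0.124, and in 6 of 10 other settings. Cxcl5 stands in a run of 5 neutrophil attractants, Cxcl5, Cxcl3, Cxcl15, Cxcl1 and Cxcl2, over 146.6 kb at chr5:90759360-90905938 (GRCm38).

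Cxcl1, the other main ligand of Cxcr2, lay at 34.8, 8.6, 55.1 and 16 normalized counts in the controls and at 324, 13.9, 1004, 148 and 451 in the mutants. Its log2 fold change was 3.07 ± 1.08 (adjusted p = 0.147). Mutants A, C, D and E were above every control, and mutant B lay within the control range. Of its neighbours, Cxcl5 had a similar profile and the others did not. Cxcl15, known as a lung neutrophil attractant, was between 47.2 and 178 normalized counts in controls and between 9.65 and 58.2 in mutants (log2 fold change -1.52 ± 0.60, adjusted p = 0.190). Cxcl2 and Cxcl3 did not exceed 30.8 normalized counts in any library.

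**Figure D1:**
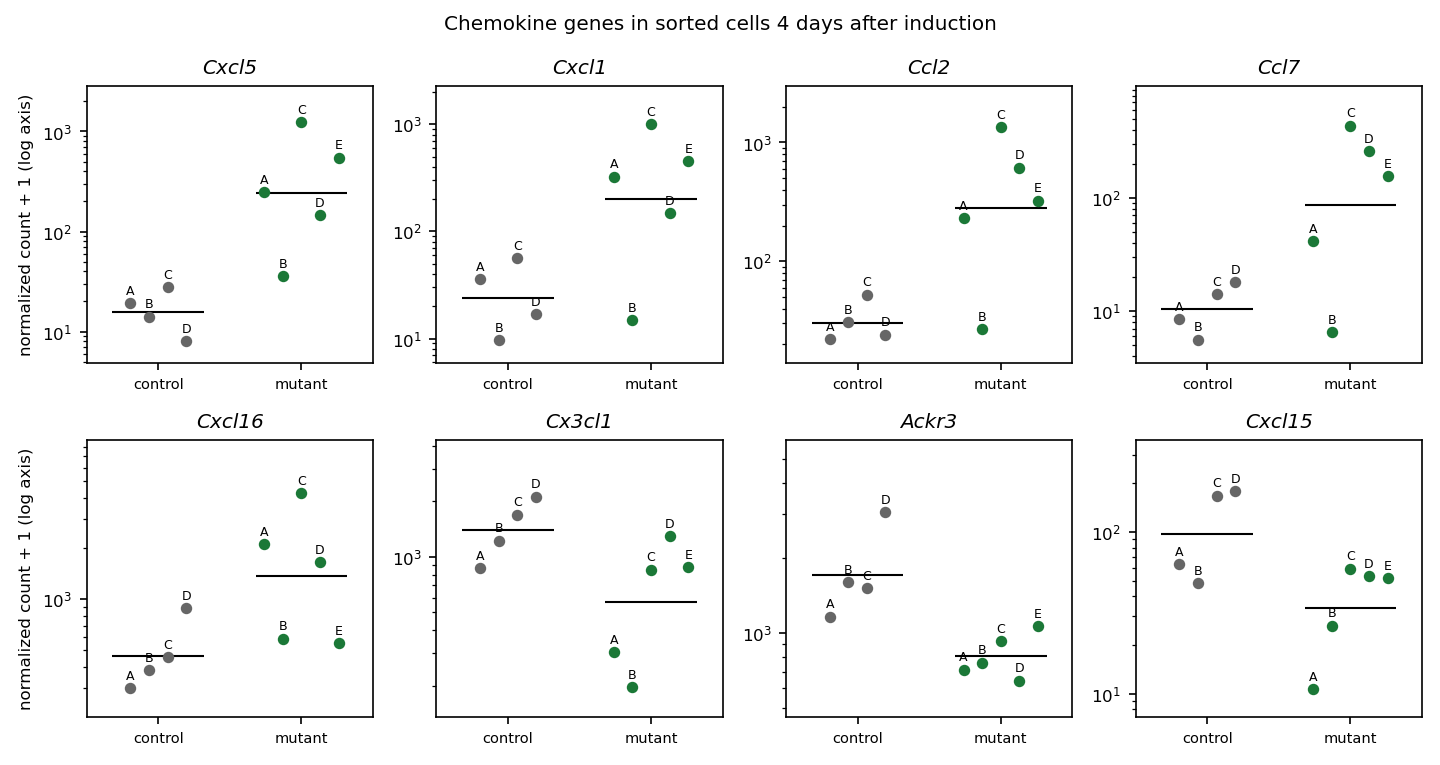
Normalized count + 1 (log axis) of members in the 4 control and 5 mutant libraries sorted 4 days after tamoxifen, each letter a library and each line the mean on the log2(normalized count + 1) scale. Cxcl5 separates the groups, with mutants from 35.0 upward and controls up to 27.0, and mutant B lies among the controls for Cxcl1, Ccl2 and Ccl7.

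The promoter of Cxcl1 is shown because this gene, Cxcl5, Ccl2 and Ccl7 stood highest in the same mutant library, C. Promoters run from 250 bases before to 50 after the start site and come from RefSeq on GRCm38.p6. Capitals mark letters that match the NF-kappaB consensus, a site bound by the transcription factor that drives many inflammatory genes, searched on both strands. The region is chr5:90890995-90891294, plus strand, and its 2 overlapping matches begin 71 and 70 bases before the start site.
Cxcl1: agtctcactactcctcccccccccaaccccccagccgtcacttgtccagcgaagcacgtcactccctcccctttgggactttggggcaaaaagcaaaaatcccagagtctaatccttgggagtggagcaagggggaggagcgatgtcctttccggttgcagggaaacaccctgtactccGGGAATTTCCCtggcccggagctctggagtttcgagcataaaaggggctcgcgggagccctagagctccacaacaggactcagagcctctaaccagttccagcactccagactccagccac
Of the members, 47 had 54 promoter entries. Cxcl5, Ccl2, Ccl7, Ccl11 and Ccl24 had none, so their promoters were not searched. The consensus was found in 12 of these 54 promoters (22.2%), namely those of Ackr2, Ccl1, Ccl20, Ccl27a, Ccl9, Ccr1, Ccr3, Ccr6, Cxcl1, Cxcl10, Cxcl2 and Cxcl3, and in 8.46% of all 32851 promoters of the same length. A match is a run of letters and not evidence of binding.

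Among the monocyte attractants that bind Ccr2, Ccl2 lay at 21.1, 29.9, 51.3 and 23.0 normalized counts in controls and at 230.5, 25.7, 1351, 615 and 324 in mutants (log2 fold change 3.19 ± 0.94, adjusted p = 0.0952). Ccl7, which shares the receptor, lay at 7.55, 4.59, 13.1 and 17.1 in controls and at 40.4, 5.51, 434, 256 and 154 in mutants (3.03 ± 1.09, adjusted p = 0.154). In both genes 4 mutants were above every control and mutant B was not. Without mutant B the family had 4 called members: Ccl2 (adjusted p = 0.00854), Cxcl5 (0.0112), Cxcl1 (0.0203) and Ccl7 (0.0235). Of the 9 fits without a library, this was the only one that called any of these 4. The remaining Ccr2 ligands were low, with Ccl8 at no more than 25.0 normalized counts and Ccl12 at no more than 0.972.

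The receptors of these ligands showed no such pattern. Cxcr2, the receptor for Cxcl1 and Cxcl5, lay between 77.1 and 103 normalized counts in controls and between 87.6 and 155 in mutants (log2 fold change 0.46 ± 0.23, adjusted p = 0.295). Cxcr1 stayed at or below 2.41 in all 9 libraries. Ccr2 lay between 34.2 and 80.7 in controls and between 34.6 and 77.5 in mutants (-0.10 ± 0.35, adjusted p = 0.901). Its 95% interval, from -0.87 to 0.68, leaves room for a change of less than 1 log2 unit either way.

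Ackr3 lay at 1160.1, 1591, 1513 and 3049 normalized counts in controls and at 711, 760, 928, 643 and 1061 in mutants. Its log2 fold change was -1.08 ± 0.26 (adjusted p = 0.0579), and it was the 1 tested member that was lower without overlap, where 4.51% of all tested genes were. It was called with array weights (adjusted p = 0.0420) and in 1 of 9 fits without a library, that without control A (0.0457). Among the controls, low Y-linked values were found in control A alone. With sex as a covariate Ackr3 was not called and its fold change was smaller, as given below. Cxcl12, the homing ligand that Ackr3 removes, lay between 36.0 and 162 in controls and between 56.2 and 318 in mutants (0.60 ± 0.56, adjusted p = 0.581). The other tested atypical receptor, Ackr4, which clears Ccl19 and Ccl21, lay between 129 and 467 in controls and between 124 and 431 in mutants.

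Both membrane-bound chemokines of epithelium were abundant, and neither passed the test. Cxcl16, which binds Cxcr6, lay at 297, 379, 456 and 887 normalized counts in controls and at 2129, 586, 4259, 1662 and 549 in mutants (log2 fold change 1.57 ± 0.60, adjusted p = 0.174). Cx3cl1, or fractalkine, lay at 870.3, 1221, 1692 and 2118 in controls and at 302, 196, 852, 1293 and 877 in mutants (-1.31 ± 0.54, adjusted p = 0.203). For both, 3 of 5 mutants were outside the control range. Cxcl10 lay between 35.4 and 195 in controls and between 60.2 and 293 in mutants (1.25 ± 0.61, adjusted p = 0.278), and Ccr4, a receptor of Th2 and regulatory T cells, between 7.69 and 87.1 against 12 and 313 (1.40 ± 1.06, adjusted p = 0.491).

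None of the other tested members passed the test. The largest of their log2 fold changes was that of Cxcl9, a ligand of Cxcr3, at 0.98 ± 0.60 (adjusted p = 0.389), with 5.67 to 10.2 normalized counts in controls and 5.64 to 65.0 in mutants. Ccl25, a ligand of Ccr9, lay between 491 and 577 normalized counts in controls and between 482 and 661 in mutants (log2 fold change 0.10 ± 0.13), and Ccr9 itself between 122 and 125 against 96.1 and 164. Ccl5 (-0.49 ± 0.41), Ccl9 (-0.46 ± 0.63) and Ccl24 (-0.21 ± 0.51) were the next lower means, all overlapping. Over the 33 tested members the median log2 fold change was 0.16, beside 0 over all tested genes. Over all 63, the mean was higher in mutants for 32 and lower for 28, and Ccl21d, Ccl26 and Ccl27b were listed at 0 in all 9 libraries. Among all genes not listed at 0 throughout, 47.3% had a lower mean in mutants. Of the 30 members not tested, the highest single value was 120.4 normalized counts, for Cxcl17 in a mutant.

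Other values differed between these libraries along with the chemokines. Y-linked genes summed to 9030.2 to 9177 normalized counts in controls B, C and D, to 405 in control A and to 338 to 395 in the mutants, so sex divides the libraries nearly as genotype does, and with sex as a covariate no member was called (Cxcl5 3.68 ± 1.52, adjusted p = 0.535; Ackr3 -0.52 ± 0.38, adjusted p = 0.782). All 7 fibroblast markers had higher means in mutants, summing to 11668 to 84728 in controls and 30691 to 217844 in mutants, with the highest sum in mutant C, and 1 of them, Lum, was called higher. All 5 smooth muscle markers also had higher means in mutants, 3 of them without overlap and 0 called, and summed to 89.2 to 876 against 293 to 2213. The 6 pan-leukocyte markers summed to 5554 to 6036 in controls and 3764 to 5929 in mutants, and 5 of the 6 had lower means in mutants. The 7 macrophage markers summed to 330.3 to 427 against 374 to 831, and the 5 neutrophil markers to 16.8 to 78.4 against 18.4 to 124. The 4-day cells had been sorted for Gfp, which labels the Krt5Cre lineage, yet markers of stromal cells and leukocytes were measured in every library. The part of such cells in the chemokine values was not tested, and in bulk libraries, which each hold many cells, fewer cells of a type and less RNA per cell cannot be told apart.

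Of 26 genes found for signaling below the receptors, 25 were tested and 2 rose, beside the 2.85% of all tested genes called. Prex1, a Rac exchange factor activated by G protein beta-gamma subunits, lay between 68.4 and 168 normalized counts in controls and between 382 and 898 in mutants (log2 fold change 2.42 ± 0.34, adjusted p = 0.00822). Grk5, a kinase that turns off G protein-coupled receptors, lay between 47.4 and 61.4 against 91.2 and 119 (1.01 ± 0.22, adjusted p = 0.0387). With sex as a covariate neither was called (Prex1 2.71 ± 0.57, adjusted p = 0.185; Grk5 1.04 ± 0.37, adjusted p = 0.454). Of the 7 chemokine-related genes that the naming rule does not catch, such as Cd74 and Ccrl2, 5 were tested and 0 were called. Cd74, the invariant chain and a Mif receptor, lay between 732 and 3114 in controls and reached 22059 in mutant C and 13619 in mutant D.

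In whole luminal tumors, 6 CC chemokines fell below the basal tumors: Ccl2, Ccl7 and Ccl8, which bind Ccr2, Ccl11 and Ccl24, which bind Ccr3 and draw eosinophils, and Ccl9, a ligand of Ccr1. Each lay at 56.4 normalized counts or more in every basal tumor and at 88.8 or fewer in every luminal tumor. In Ccl2, Ccl8 and Ccl9, which reached 10 in a luminal tumor, the groups were apart. No member rose. Of 63 members 43 were tested, 0 were called higher and 6 lower, beside 2.20% of all 15357 tested genes called in either direction. Of the 43, 6 reached 10 normalized counts in no luminal tumor. Of these, 4 (Ccl7, Ccl11, Ccl21a and Ccl24) did so in all basal tumors and so could not overlap, while Ccl22 and Ccr7 also drew on luminal domains to pass the filter, and the counts over the 43 support no statement about the family. The fit also held 2 luminal domains of the same table as a further group, to estimate the spread.

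Ccl2 lay at 1326, 1201 and 3328 normalized counts in basal tumors A to C and at 30.3, 0 and 4.34 in luminal tumors A to C. Ccl7 lay at 1304, 216 and 2347 against 3.39, 3.42 and 1.09. Ccl8 lay at 727, 30340.1 and 4478 against 6.65, 7.84 and 88.8. In Ccl2 and Ccl8 the lowest basal tumor was above the highest luminal tumor, whereas Ccl7 could not overlap because of the filter. The log2 fold changes were -8.31 ± 1.37 for Ccl2 (adjusted p = 0.0292), -7.99 ± 1.62 for Ccl7 (0.0420) and -7.99 ± 1.55 for Ccl8 (0.0393). Ccl12, the fourth ligand of this receptor, lay at 270.0, 1007 and 243 against 136, 2.55 and 17.8 (-4.28 ± 1.58, adjusted p = 0.195). The receptor Ccr2 itself lay at 149.8, 1023 and 29.5 against 193, 24.9 and 245 (-0.65 ± 1.63, adjusted p = 0.871), with wide overlap.

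Ccl11, eotaxin, lay at 443, 19186 and 741 normalized counts in basal tumors and at 3.42, 2.31 and 3.22 in luminal tumors (log2 fold change -8.87 ± 1.68, adjusted p = 0.0364). Basal tumor B held far more Ccl8 and Ccl11 than the other basal tumors, and without it the changes were -6.63 ± 1.62 for Ccl8 (adjusted p = 0.0891) and -7.18 ± 1.62 for Ccl11 (0.0719). Ccl24, eotaxin-2, lay at 56.4, 123 and 350 in basal tumors and was listed at 0 in all 3 luminal tumors (adjusted p = 0.0339), so no fold is given. Their receptor Ccr3 lay at 13.7, 14.0 and 0 in basal tumors and at 0, 225 and 137.5 in luminal tumors (2.38 ± 2.61, adjusted p = 0.678). Ccl2, Ccl7, Ccl11, Ccl12 and Ccl8 lie side by side over 81.2 kb at chr11:82035571-82116799.

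**Figure D2:**
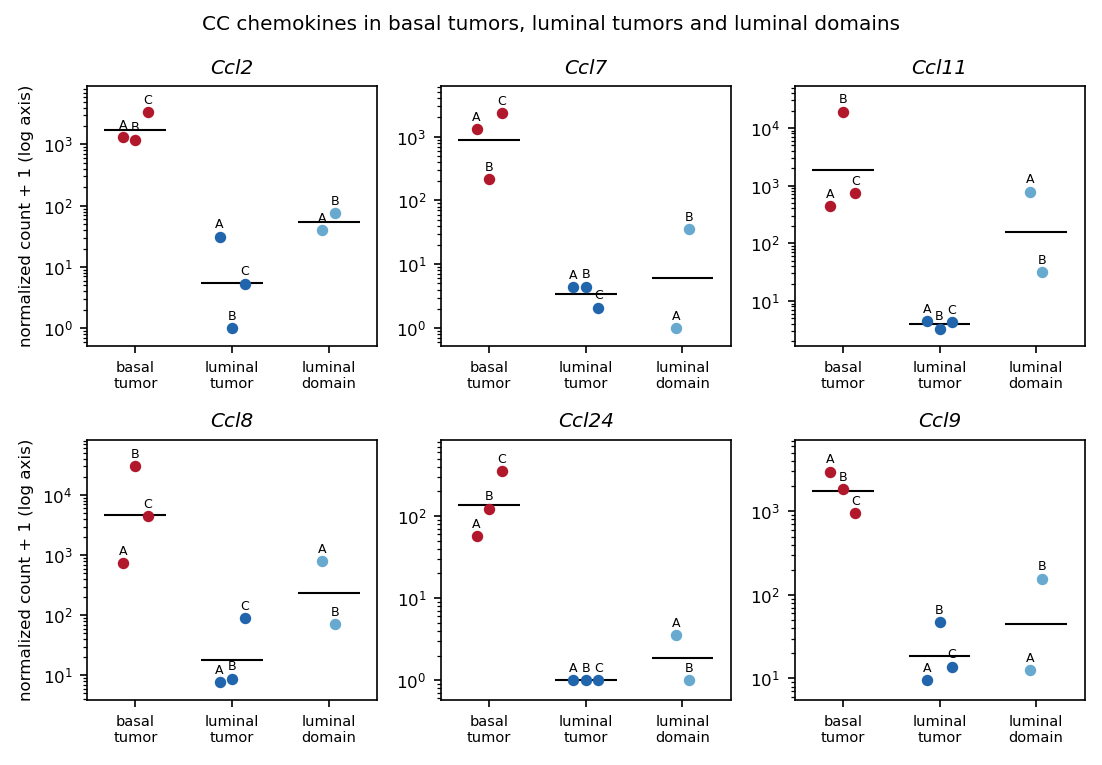
Normalized count + 1 (log axis) of the 6 called members in 3 basal tumors, 3 luminal tumors and 2 luminal domains of one table, each letter a library and each line the mean on the log2(normalized count + 1) scale. The lowest basal tumor lies above the highest luminal tumor in Ccl2, Ccl8 and Ccl9. Ccl7, Ccl11 and Ccl24 reached the filter's level in all basal tumors and no luminal tumor, so they could not overlap. Ccl8 and Ccl11 of luminal domain A, at 791 and 784, reach the range of basal tumors.

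Ccl9, a monocyte attractant of a separate run of genes, lay at 2978, 1851 and 958 normalized counts in basal tumors and at 8.56, 46.2 and 12.8 in luminal tumors (log2 fold change -6.56 ± 1.22, adjusted p = 0.0364). Its neighbours Ccl5, Ccl6, Ccl3 and Ccl4, with which it spans 138.9 kb at chr11:83525778-83664683, also had lower means but were not called. Ccl6 lay at 8816, 1327 and 731 against 160.4, 321 and 153 (-3.36 ± 1.19, adjusted p = 0.182), with no overlap. Ccl3 lay at 207, 1597 and 168 against 2.24, 0 and 78.5 (-5.91 ± 1.95, adjusted p = 0.154), also with no overlap. Ccl4 and Ccl5 overlapped, through luminal tumor C at 455 for Ccl4 and luminal tumor A at 337.5 for Ccl5. Ccr1, a receptor of Ccl3, Ccl5, Ccl6 and Ccl9, lay at 1562, 1377 and 237 against 64.8, 3.51 and 384 (-4.04 ± 1.60, adjusted p = 0.221).

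Promoters of Ccl8 and Ccl9 are shown as called members from the 2 gene runs on chromosome 11. Ccl8 lies at chr11:82114935-82115234, plus strand, with no match to the motifs searched. Ccl9 lies at chr11:83578587-83578886, minus strand, with 1 NF-kappaB match, in capitals, that begins 35 bases before the start site.
Ccl8: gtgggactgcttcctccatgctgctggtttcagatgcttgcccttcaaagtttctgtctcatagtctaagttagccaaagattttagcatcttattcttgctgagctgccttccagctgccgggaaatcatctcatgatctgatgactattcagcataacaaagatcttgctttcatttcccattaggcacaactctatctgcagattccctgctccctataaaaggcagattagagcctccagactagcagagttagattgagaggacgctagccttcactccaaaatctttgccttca
Ccl9: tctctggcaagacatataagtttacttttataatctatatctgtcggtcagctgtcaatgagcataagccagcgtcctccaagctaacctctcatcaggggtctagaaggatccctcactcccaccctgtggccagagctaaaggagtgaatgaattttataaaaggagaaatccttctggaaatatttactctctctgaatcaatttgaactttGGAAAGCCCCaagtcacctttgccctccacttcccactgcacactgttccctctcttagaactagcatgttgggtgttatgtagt
The direct repeat bound by Pparg with its partner Rxr, read as AGGTCA, any 1 base and AGGTCA, was searched on both strands. It was found in 0 of the 54 promoters of members and in 0.0396% of all promoters. With so low a share in all promoters, 0 of 54 could be foreseen and tells nothing about binding by Pparg. The called members Ccl2, Ccl7, Ccl11 and Ccl24 had no promoter entry and were not searched.

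The 6 calls depended on the filter, the test's settings and which libraries were in the fit. With no filter on low values 0 members were called, and by eBayes without a trend 2 were, Ccl2 and Ccl24. Without any 1 basal tumor, or without luminal tumor A or B, no member was called (adjusted p up to 0.141). Without luminal tumor C 11 were called, and without either luminal domain only Ccl9 was. In the comparison of the 3 basal and 3 luminal tumors alone 5 were called. All 6 kept the direction in every fit, with log2 fold changes for Ccl2 from -9.56 to -7.07 and for Ccl9 from -7.24 to -6.09 over the libraries left out.

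Without overlap 15 of the 43 tested members were lower and 0 higher in luminal tumors, where 11.6% and 9.98% of all tested genes were. Since 4 of the 15 could not overlap because of the filter, as given above, the count is a description and supports nothing about the family. Cxcl12, which retains Cxcr4-bearing cells, lay at 220, 367 and 526 normalized counts in basal tumors and at 2.40, 3.08 and 30.9 in luminal tumors (log2 fold change -5.52 ± 1.28, adjusted p = 0.0620). Ccl21a, which guides cells toward lymph nodes through Ccr7, lay at 97.6, 127 and 29.8 against 0, 4.88 and 0 (-5.34 ± 1.45, adjusted p = 0.0973); copies of Ccl21 are nearly identical, so its reads may have been split among them. Ccr7 lay at 20.4, 113 and 8.35 against 4.62, 0 and 0 (-4.0 ± 1.96, adjusted p = 0.316). Cxcr4 overlapped, at 221, 155.5 and 66.0 against 21.6, 2.5 and 461.

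The neutrophil attractants did not divide the tumors by group. Cxcl5 lay at 22884, 40.7 and 2216 normalized counts in basal tumors and at 2650.1, 249 and 10477 in luminal tumors (log2 fold change 0.57 ± 2.04, adjusted p = 0.912). Cxcl1 lay at 8418, 336 and 1423 against 19.3, 516 and 2783 (-2.37 ± 1.68, adjusted p = 0.494), and Cxcr2 at 1017, 128 and 1161 against 56.6, 853 and 1739. Basal tumors A and C and luminal tumor C were the highest of the 6 in Cxcl1, Cxcl2, Cxcl3 and Cxcr2, whereas for Cxcl5 luminal tumor A lay above basal tumor C. The same 3 libraries had the highest sums of the 5 neutrophil markers, at 15706, 12734 and 15525 normalized counts, while the other 3 lay between 241 and 417. The sign of the Cxcl5 difference turned without basal tumor B (-1.90) or without luminal tumor C (-0.66). Cxcl15 was the largest of the higher means, at 0.850, 250.4 and 14.8 against 937, 14.0 and 2407 (4.06 ± 2.24, adjusted p = 0.375).

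The interferon-induced ligands were highest in basal tumor B. Cxcl9 lay at 248, 7488 and 321 normalized counts in basal tumors and at 398, 2.10 and 8.33 in luminal tumors (log2 fold change -5.22 ± 2.39, adjusted p = 0.284), and its difference was -3.65 without basal tumor B. Cxcl10 lay at 1285, 27021 and 105 against 986, 835 and 412.5 (-1.15 ± 1.69, adjusted p = 0.764), and without basal tumor B its difference was 0.92. Cxcl11 lay at 4.47, 6859 and 107 against 314, 88.6 and 118. Their receptor Cxcr3 was not tested, at 480 in basal tumor B, under 1 in the other basal tumors and listed at 0 in luminal tumors. Basal tumor B also held the 2282 normalized counts of Xcl1, a lymphocyte product, and its 6 T cell markers summed to 8127, against 195 to 853 in the other 5 tumors.

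**Figure D3:**
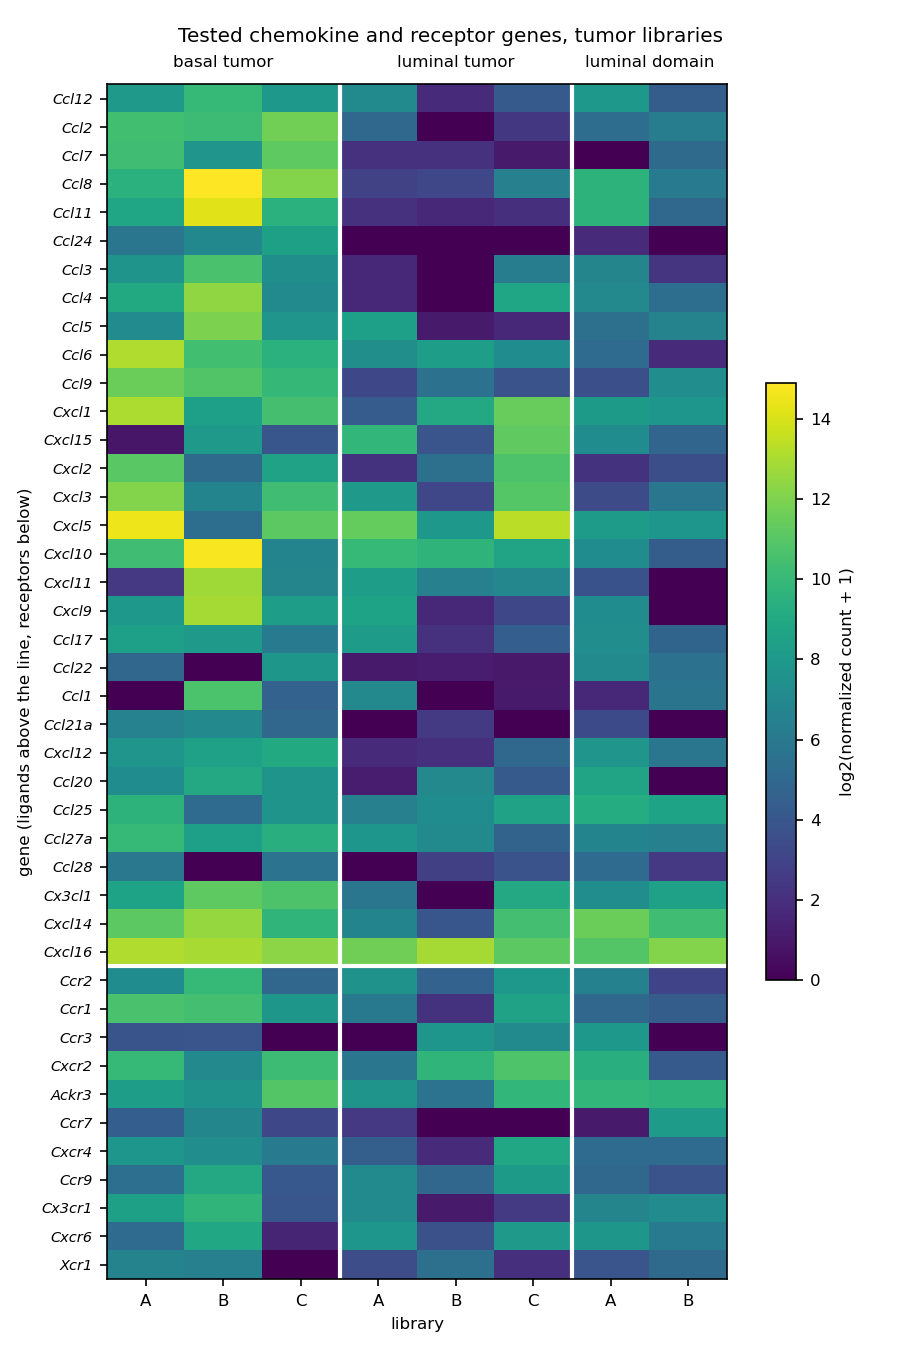
Log2(normalized count + 1) of the tested members (rows, 1 left out, ligands above the line and receptors below it, grouped by role) in the 3 basal tumors, 3 luminal tumors and 2 luminal domains of one table (columns). The Ccr2 ligands are high in all basal tumors, the interferon-induced ligands peak in basal tumor B, and Cxcl1, Cxcl2 and Cxcl3 are highest in basal tumors A and C and luminal tumor C.

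Epithelial members were measured in both tumor types. Cxcl16 lay at 8916, 7976 and 5040 normalized counts in basal tumors and at 3287, 7478 and 2297 in luminal tumors (log2 fold change -0.89 ± 0.51, adjusted p = 0.389). Cxcl14, an epithelial chemokine, lay at 2223, 5920.3 and 839.5 against 106, 14.8 and 1375 (-4.07 ± 1.41, adjusted p = 0.173). Cx3cl1 lay at 391.5, 2361 and 1676 against 56.2, 0 and 503.5 (-5.24 ± 1.94, adjusted p = 0.196), and Ccl20, the ligand of Ccr6, at 153, 506 and 211 against 1.16, 128 and 17.5 (-3.88 ± 2.25, adjusted p = 0.399). Ccl27a, whose copy Ccl27b was listed at 0, lay at 989, 331.5 and 684 against 223, 135 and 25.9 (-2.70 ± 1.00, adjusted p = 0.196). The receptors Cxcr6 and Ccr9 had overlapping values, Cxcr6 at 35.5, 493 and 1.86 against 222, 11.7 and 263 and Ccr9 at 42.1, 515.5 and 16.5 against 134, 29.6 and 275. Ackr3 lay at 310, 194 and 1898 against 204, 50.5 and 930 (-1.18 ± 1.15, adjusted p = 0.634).

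Over all 63 members the mean was lower in luminal tumors for 49 and higher for 8. Among all genes with a value above 0 in these tumors, 56.4% had a lower mean in luminal tumors. Ccl21b, Ccl21c, Ccl21d, Ccl26, Ccl27b and Cxcr1 were listed at 0 throughout. The tested members had a median log2 fold change of -2.70, beside -0.11 over all tested genes. An unadjusted p under 0.05 was found for 17 of the 43 tested members, all lower in luminal tumors, where 18.4% of all tested genes had one in either direction and 9.70% were lower with one. These counts include members that the filter kept through the basal tumors.

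Markers of other cells differed between the same libraries. The 7 fibroblast markers, all lower on average in luminal tumors and 3 of them called, summed to 45144 to 67706 normalized counts in basal tumors and 212 to 17149 in luminal tumors, the highest in luminal tumor C. The 5 smooth muscle markers, 2 of them called lower, summed to 4745 to 42943 against 11.7 to 1053, and Des was listed at 0 in all luminal tumors. The 7 macrophage markers, 0 called, summed to 9581 to 34748 against 335 to 7985. The 6 pan-leukocyte markers, 0 called, summed to 6416 to 35758 against 5247 to 7444, with Ptprc, or Cd45, at 907 to 3740.2 in basal tumors and 47.8 to 593.5 in luminal tumors. The 6 endothelial markers, all lower on average and Cldn5 called, summed to 1833 to 3096 against 406 to 1920.5. The part of these cells in the chemokine differences was not tested, and genotype, tumor type and captured cells cannot be told apart in this design. Of 25 tested signaling genes 0 were called, and of 7 chemokine-related genes outside the naming rule Rarres2, which encodes the leukocyte attractant chemerin, was called lower, at 800, 591 and 517 against 4.81, 8.22 and 1.74 (log2 fold change -6.89 ± 1.36, adjusted p = 0.0403).

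**Figure D4:**
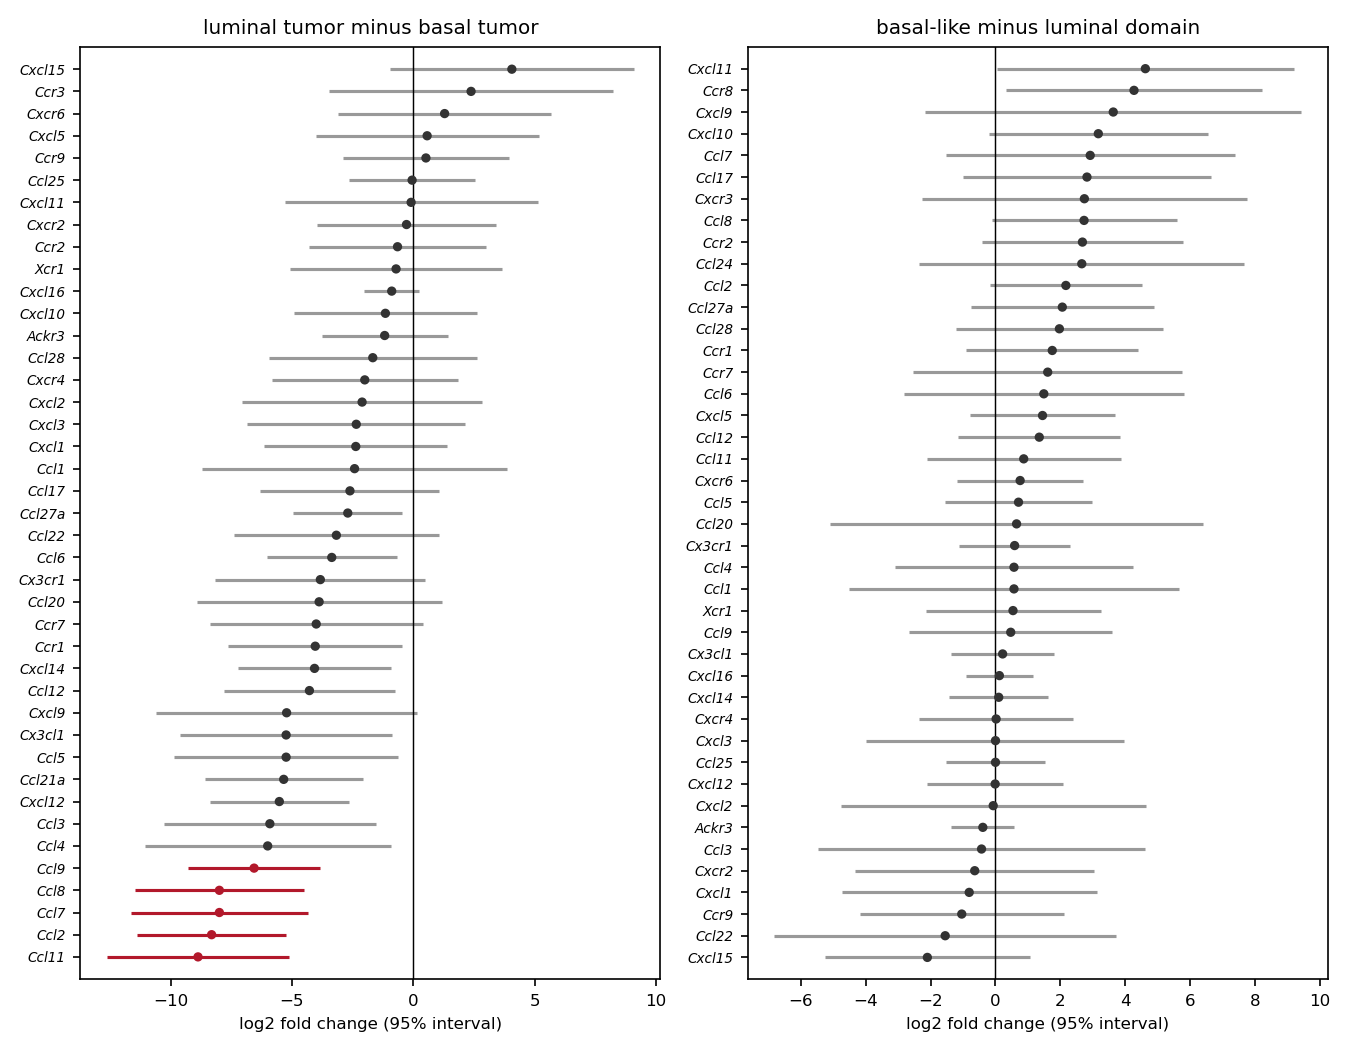
Log2 fold changes (points) with 95% intervals (lines) of tested members, 1 left out, for luminal against basal tumors and for basal-like against luminal domains, with called members in red and Ccl24 left out of the tumor panel because it was listed at 0 in all luminal tumors. Intervals of single members span several log2 units, such as -11.38 to -5.23 for Ccl2 in tumors, and in the domains the intervals of Ccr8 and Cxcl11 are the ones that leave out 0.

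In the luminal domains of mixed lesions, lower means than in basal tumors were again common, but no member passed the test. The basal tumors are the same libraries as above and 2 of the 3 luminal domains were in the previous fit, so the comparisons are not independent. Of 63 members 44 were tested, 0 were called, where 2.53% of all 14921 tested genes were. An unadjusted p under 0.05 was found for 9 members, a count close to the 20.6% of all tested genes that had one. All 9 were lower in luminal domains, where 9.45% of all tested genes were lower at that p. Without overlap 8 members were lower and 0 higher, where 12.8% and 14.0% of all tested genes were. The median log2 fold change of tested members was -2.45, beside 0.01 over all tested genes.

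Ccl2 lay at 1398, 1241 and 3469 normalized counts in basal tumors and at 41.9, 81.0 and 540 in luminal domains A to C (log2 fold change -3.88 ± 0.97, adjusted p = 0.0832). Ccl9 lay at 2548.5, 1553 and 811 against 10.1, 137 and 174 (-4.52 ± 1.12, adjusted p = 0.0819). Both genes separated the groups. Ccl21a did so too, at 124, 158 and 37.3 against 11.6, 0 and 2.11 (-4.75 ± 1.37, adjusted p = 0.114).

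The largest negative difference, of Ccl7, came with overlap, at 1366, 222 and 2430.5 normalized counts in basal tumors and at 0, 37.5 and 302 in luminal domains (log2 fold change -5.32 ± 2.0, adjusted p = 0.191). Ccl6 lay at 9667, 1427 and 793 against 40.6, 2.86 and 1225 (-5.25 ± 1.95, adjusted p = 0.186). Ccl8 lay at 761, 31156 and 4637 against 840.2, 75.9 and 2535 (-3.13 ± 1.54, adjusted p = 0.301) and Ccl11 at 466, 19764 and 770 against 836, 32.8 and 276 (-3.28 ± 1.59, adjusted p = 0.294). Luminal domain A thus lay within the basal tumor range for both genes, and luminal domain C did so for Ccl8. Ccl24 lay at 57.8, 123 and 355 against 2.61, 0 and 111 (-4.22 ± 1.84, adjusted p = 0.245).

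Luminal domain C was the highest luminal domain for some members and not for others. Ccl11 and Ccl12 were highest in domain A, at 836 and 268 normalized counts against 276 and 44.3 in domain C. Ccr7 was highest in domain B, at 326 against 90.2 in domain C. Domain C held 1289 normalized counts of Cxcl10, against 158 and 21.9 in domains A and B. It held 3965 of Cxcl5 against 303 and 242, and 1206 of Cxcl2 against 3.66 and 11.4. Its neutrophil markers summed to 7610.1 normalized counts, the highest of the 3 luminal domains, whose lowest sum was 208. The fibroblast markers summed to 46663 to 71458 in basal tumors and 5298 to 31667 in luminal domains, and macrophage markers to 10087 to 35945 against 6722 to 15504, with 0 called in either list. The 5 smooth muscle markers summed to 4930 to 45206 against 1032 to 1622, and 2 of them, Acta2 and Cnn1, were called lower, Cnn1 being listed at 0 in all luminal domains. Their part in the chemokine values was not tested.

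Of the abundant members, Cxcl16 lay at 9608, 8428 and 5370 normalized counts in basal tumors and at 2081, 5052 and 5984 in luminal domains (log2 fold change -0.93 ± 0.44, adjusted p = 0.283). Cxcl14 lay at 2388, 6235 and 891.5 against 3301, 1410 and 1111 (-0.45 ± 0.72, adjusted p = 0.764). Cxcl1 lay at 8013, 313 and 1340 against 264, 222 and 509 (-2.27 ± 1.07, adjusted p = 0.280). All 3 overlapped, as did Cxcl9, at 259, 7684 and 332 against 157, 0 and 479 (-4.37 ± 2.34, adjusted p = 0.339).

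A few members had higher means in luminal domains, none of them called. Cxcr6, carried by resident T cells, lay at 37.4, 509 and 1.93 normalized counts in basal tumors and at 246, 76.6 and 690.5 in luminal domains (log2 fold change 2.62 ± 1.85, adjusted p = 0.473). Ccl22, a ligand of Ccr4, lay at 30.4, 0 and 241 against 146.5, 51.9 and 205 (2.58 ± 1.94, adjusted p = 0.50), and Ccr3 at 14.5, 14.5 and 0 against 263, 0 and 169 (2.51 ± 2.31). Cxcl15 (2.17 ± 1.83), Ccl25 (1.36 ± 1.11) and Ackr3 (1.12 ± 0.83) followed, all with overlap. Over all 63 members the mean was lower in luminal domains for 48 and higher for 10, and 5 members, the copies Ccl21b, Ccl21c, Ccl21d and Ccl27b together with Ccl26, were listed at 0. Among all genes not listed at 0 throughout, 55.5% had a lower mean in luminal domains. Of 25 tested signaling genes 0 were called, and of 7 chemokine-related genes outside the naming rule 0 were.

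Within mixed lesions, the basal-like domain had higher means than the luminal domain for 43 of 63 members and lower means for 13, but no member was called and no gene at all was. Among all genes not listed at 0 throughout, 48.5% had a lower mean in the basal-like domain. With limma 757 of the 14874 tested genes had an unadjusted p under 0.05, 20 were called by eBayes without a trend, and 0% were called in the main test. The luminal domains are the same libraries as in the comparison above. Of 43 tested members, 2 had an unadjusted p under 0.05, Ccr8 and Cxcl11, both higher in the basal-like domain, where 5.09% of all tested genes had such a p in either direction and 2.59% were higher with one. The median log2 fold change was 0.71 over the tested members and 0.01 over all tested genes.

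The interferon-induced ligands had some of the largest differences. Cxcl11 lay at 13.6, 0 and 359 normalized counts in luminal domains A to C and at 193, 348 and 1160.1 in basal-like domains A to C (log2 fold change 4.62 ± 1.98, unadjusted p = 0.0479, adjusted p = 0.935). Cxcl10 lay at 158, 22.2 and 1307 against 682.5, 786 and 6542 (3.17 ± 1.46, adjusted p = 0.935), and Cxcl9 at 221, 0 and 683 against 1377, 54.0 and 3766 (3.63 ± 2.51, adjusted p = 0.935). In each gene all 3 basal-like domains were above luminal domain B, and luminal domain C overlapped the basal-like range. Each basal-like domain also lay above the luminal domain of the same letter in these ligands, but whether same letters share a lesion is unknown. Cxcr3 lay at 0, 0 and 80.4 against 144, 2.74 and 43.6 (2.74 ± 2.16). The 3 ligands lie within 44.1 kb at chr5:92321347-92365485. Cxcl11 is annotated as a polymorphic pseudogene, so whether these mice make a working protein from its RNA is unknown.

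The promoter of Cxcl10 is shown as that of an interferon-induced member, at chr5:92348840-92349139, minus strand. Capitals mark 1 match to the ISRE core, read as GAAA, any 2 bases and GAAA, the element that interferon response factors bind, which begins 213 bases before the start site, and 3 NF-kappaB matches, which begin 159, 104 and 103 bases before it and of which the last 2 overlap.
Cxcl10: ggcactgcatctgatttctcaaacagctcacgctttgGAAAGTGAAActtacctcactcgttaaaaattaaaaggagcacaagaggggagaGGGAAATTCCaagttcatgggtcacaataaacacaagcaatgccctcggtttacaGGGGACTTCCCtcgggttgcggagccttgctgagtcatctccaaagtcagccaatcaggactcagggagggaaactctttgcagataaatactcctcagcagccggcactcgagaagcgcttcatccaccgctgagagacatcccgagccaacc
The ISRE core, searched on both strands, was found in 3 of the 54 promoters of members (5.56%), those of Ccl19, Cxcl10 and Cxcl14, and in 3.44% of all promoters.

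**Figure D5:**
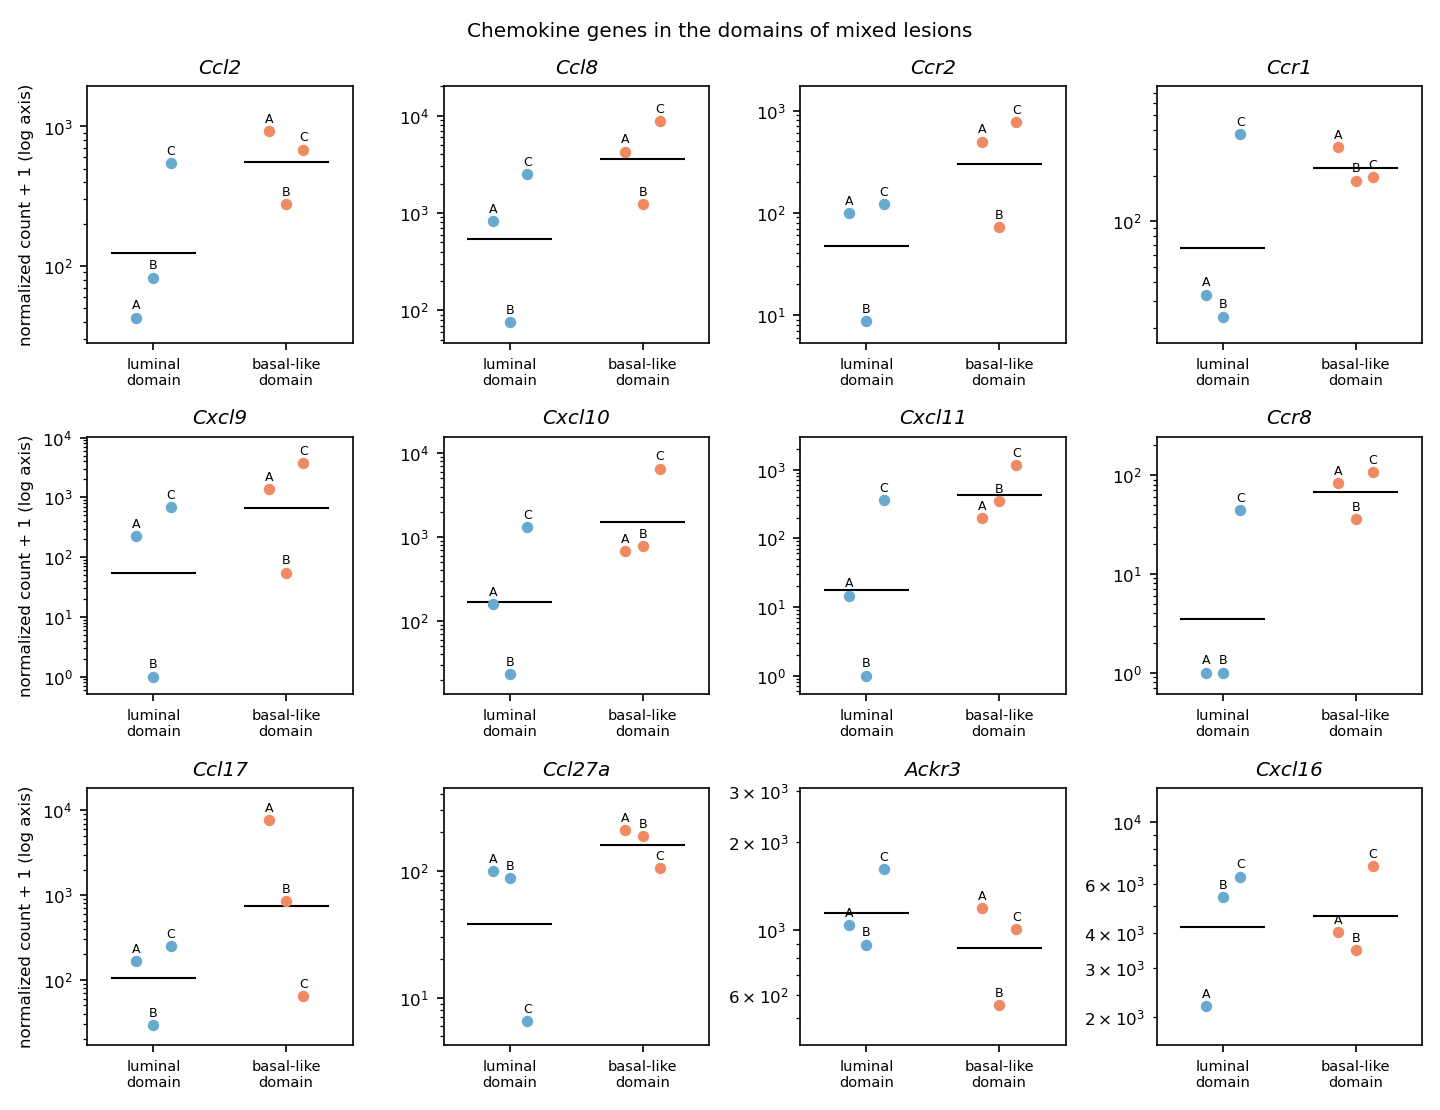
Normalized count + 1 (log axis) of members in 3 luminal and 3 basal-like domains of mixed lesions, each letter a library and each line the mean on the log2(normalized count + 1) scale. Ccl27a is at 103.5 or more in all basal-like domains and at most 97.6 in luminal domains, while the interferon-induced ligands overlap through luminal domain C.

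Ccl27a, a chemokine of skin epithelium, lay at 97.6, 86.0 and 5.56 against 207.5, 186 and 103.5 (log2 fold change 2.06 ± 1.22, adjusted p = 0.935). It was 1 of 2 tested members higher without overlap and 0 were lower, where 5.62% and 5.14% of all tested genes were. Among receptors of T cells and monocytes, Ccr8, a receptor of regulatory T cells in tumors, lay at 0, 0 and 43.1 against 81.8, 34.7 and 106 (4.27 ± 1.71, unadjusted p = 0.0369, adjusted p = 0.935). Ccr2 lay at 98.8, 7.66 and 120 against 495, 71.5 and 769.9 (2.68 ± 1.34, adjusted p = 0.935).

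Ccl2, Ccl7 and Ccl8, the Ccr2 ligands that fell in luminal tumors, had higher means in the basal-like domain. Ccl8 lay at 824, 75.4 and 2516 normalized counts in luminal domains and at 4270.4, 1240.4 and 8804 in basal-like domains (log2 fold change 2.73 ± 1.23, adjusted p = 0.935). Ccl2 lay at 41.7, 81.6 and 543 against 928, 275 and 680.1 (2.17 ± 1.02, adjusted p = 0.935) and Ccl7 at 0, 37.6 and 303 against 301, 118 and 140.2 (2.92 ± 1.93, adjusted p = 0.935). Each overlapped through luminal domain C. For Ccl8 and Ccl2 every basal-like domain was above the luminal domain of the same letter, whereas for Ccl7 basal-like domain C was below luminal domain C. Same letters are not known to share a lesion, so this is no paired result. The 95% interval for Ccl2, from -0.17 to 4.51, includes no difference and a large one.

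Neither ligand of Ccr4 was called. Ccl17 lay at 164, 28.3 and 248 normalized counts in luminal domains and at 7729, 842 and 63.4 in basal-like domains (log2 fold change 2.82 ± 1.65, adjusted p = 0.935), with basal-like domain A highest by far. Ccl22 lay at 149, 53.4 and 211 against 1169, 58.4 and 0 (-1.55 ± 2.29, adjusted p = 0.980), and its difference was 1.13 without basal-like domain C. Among the neutrophil attractants Cxcl5 lay at 306, 247 and 4045 against 1636, 2396 and 1609.7 (1.45 ± 0.97), Cxcl1 at 259, 220 and 504 against 769.6, 882 and 6.89 (-0.81 ± 1.70) and Cxcl15 at 165, 31.6 and 144 against 45.5, 54.6 and 2.83 (-2.10 ± 1.37). Cxcr2 (-0.64 ± 1.60), Ccr9 (-1.04 ± 1.36) and Ccl3 (-0.43 ± 2.19) also had lower means.

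Cxcl16 lay between 2192 and 6380.0 normalized counts in luminal domains and between 3479 and 6949 in basal-like domains (log2 fold change 0.12 ± 0.45), Cxcl14 between 1133 and 3327 against 882 and 4934 (0.10 ± 0.66), and Ackr3 between 892 and 1612 against 554 and 1186 (-0.39 ± 0.42). For Cxcl16 the 95% interval, from -0.91 to 1.15, is narrower than for most members. Ccl19, Ccl21b, Ccl21c, Ccl21d, Ccl26, Ccl27b and Ccr1l1 were listed at 0, and among the 20 members not tested the highest value was 264.9 normalized counts, for Ccr3 in luminal domain A.

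T cell markers summed to 361 to 1307 normalized counts in luminal domains and to 1357 to 3580 in basal-like domains, and fibroblast markers to 5520 to 32698 against 14142 to 104544. Macrophage markers summed to 6838 to 15874 against 6340.3 to 26821, and neutrophil markers to 209 to 7547 against 91.3 to 907.5. No gene of these lists was called. Their part in the chemokine values was not tested. The Pparg row lay between 4116 and 5427 normalized counts in luminal domains and between 2326 and 3230 in basal-like domains (adjusted p = 0.864). Of 26 tested signaling genes 0 were called.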

How the data were processed

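Reads of 29 mouse RNA-seq samples had been quantified by the authors with kallisto 0.44.0, gathered to genes with tximport and scaled with DESeq2 1.18, separately for each table. The signal values deposited are DESeq2's normalized counts, whose factors differ between genes, so whole reads could not be recovered. The study's methods give a targeted depth, but the depth each library reached is unknown. Processing notes of the submitters name GRCm38 and GRCh38 and do not say which served these tables. The members and all gene lists were chosen with earlier results of these data known. Of the series, 21 libraries in 5 tables were used, grouped by their labels. A table with 8 columns of wild-type samples, untreated or given BBN, was left out, because its headers and the labels do not say which columns are which, and deposited tables of the authors' own fold changes and p-values were not used.

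Genes that reached 10 normalized counts in enough libraries to fill the smaller group entered limma 3.58.1 in R 4.3.3 (lmFit, eBayes with a trend, two-sided). The scale was log2(normalized count + 1), on which changes of low genes come out too small, and p was adjusted over all genes by Benjamini-Hochberg at 0.05. The scripts were tested on simulated data. Members named are those called, the 6 largest differences in each direction among tested members, the 8 with the highest mean, and their ligand or receptor partners; others of the same gene run or pattern were added after their values were seen. Gene positions are from GENCODE on GRCm38 for 61 of the 63 members and promoters from RefSeq. Alternatives were other pseudocounts (0.5 and 5), no filter or one at 50, eBayes without a trend, array weights, quantile and upper-quartile scaling, smaller or larger sets of libraries, sex as a covariate, and each library left out in turn. Values of 1 member are not reported here, though it is included in the counts.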

Additional observations from a re-analysis of the deposited data

How the results depend on the processing

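Calls of members were fragile. At 4 days 1 member was called, 0 by eBayes without a trend, in the table of 3 against 3 libraries or with sex as a covariate, 5 with array weights, and 0 to 4 with a library left out. All genes called there numbered 467, and 269, 147, 26 and 1054 in these settings in the same order of naming, and 126 to 593 with a library left out. In quantile-normalized values 270 were higher and 287 lower, beside 290 and 177. The 1 member called was not always Cxcl5. With no filter on low values it was Ccr3, higher in mutants at no more than 2.66 normalized counts, and without control A it was Ackr3, lower in mutants. In luminal against basal tumors 6 members were called, 0 with no filter on low values, 2 by eBayes without a trend, and 0 to 11 with a library left out. All genes called numbered 338, and 52 with no filter, 142 by eBayes without a trend, 142 with the 3 basal and 3 luminal tumors alone, 513 with luminal tumors and domains together, and 3 to 866 with a library left out. In luminal domains against basal tumors no member was called in any setting, and 377 genes were, with 144 under no filter, 107 by eBayes without a trend, 52 with the 2 luminal domains of the larger table, and 0 to 518 with a library left out. Between the domains of mixed lesions 0 genes were called, 20 by eBayes without a trend, and 0 with any library left out.

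Among the members named by rule, no called difference changed direction. Differences that were not called and did so are given here as log2 fold changes, with the lowest and highest value over the libraries left out. At 4 days they were Ccl24 (0.05 with array weights, 0.55 in the smaller table, -0.51 without mutant C to 0.10 without mutant A), Ccl25 (-0.05 with sex as a covariate) and Ccl9 (0.48 in the smaller table). In luminal against basal tumors they were Ccr9 (-0.41 with luminal tumors and domains together, -0.51 without basal tumor C to 1.93 without basal tumor B), Cxcl5 (-0.60 with tumors and domains together, -1.90 without basal tumor B to 2.65 without basal tumor A), Cxcl10 (-3.08 without basal tumor C to 0.92 without basal tumor B) and Cxcr6 (-0.57 without basal tumor C to 3.15 without basal tumor B). In luminal domains against basal tumors they were Cxcl14 (-1.16 without basal tumor C to 0.24 without basal tumor B) and Cxcl5 (-3.50 without basal tumor B to 1.07 without basal tumor A). Between domains they were Cxcl14 (-0.05 with array weights, -0.60 without basal-like domain A to 0.64 without basal-like domain B), Cxcl16 (-0.03 with array weights, -0.35 without luminal domain A to 0.42 without luminal domain C), Ccl22 (-3.96 without basal-like domain A to 1.13 without basal-like domain C), Cxcl1 (-1.98 without basal-like domain B to 1.42 without basal-like domain C), Cxcr2 (-2.24 without luminal domain B to 0.33 without luminal domain A) and Ccl3 (-2.48 without basal-like domain C to 1.57 without basal-like domain B). Of other members with values in the text, Cxcl2 (-0.7 to 0.78), Ccr2 (-0.33 to 0.07) and Ccr9 (-0.11 to 0.08) at 4 days and Ccr2 (-1.87 to 0.66), Cxcr2 (-1.3 to 1.19) and Cxcl11 (-2.52 to 2.63) in luminal against basal tumors also changed sign with a library left out. The causes were not tested. No paired analysis was possible from the labels, because the columns carry library numbers and no replicate numbers. The labels also do not say which upper and lower parts came from the same lesion. Pairs could only be assumed from consecutive library numbers, and a paired fit on that assumption was not run. The depth in reads that each library reached is unknown, so no limit can be given for members listed at 0.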
